A study of Mus musculus with 16 samples.

Results

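The mRNA levels of 10 genes were examined in mouse small intestine after loss of Cul4b. They were the cytokine gene Tnf, the NF-kB feedback inhibitors Nfkbia and Tnfaip3, the chemokine genes Ccl20, Ccl25, Ccl28, Cxcl10, Cxcl16 and Cx3cl1, and the interleukin gene Il18. They were taken by gene symbol, as epithelial signals to immune cells and the feedback loop that limits them, and all 10 had a row in each of the 3 deposited count tables, which list 52636 genes for crypts, 54532 for the KO-IEC organoids and 52636 for the KO-CAG organoids. The choice of the 10 was made with earlier results of these data known. CUL4B is the scaffold of a cullin-RING ubiquitin ligase, which marks proteins for degradation. All mice were on a C57BL/6 background. KO-IEC mice carried pVillin-Cre and the allele Cul4bfn/Y, so that Cre acted in the intestinal epithelium, and 4 crypt libraries were compared with 4 from wild-type (WT) controls. The paper gives these controls as Cul4bfn/Y and names no Cre for them. Carrying Cre and the deletion therefore cannot be told apart in KO-IEC crypts or organoids. Organoids are epithelial cultures grown from crypts, and 2 KO-IEC organoid libraries were set against 2 WT libraries. In the third experiment the allele was deleted in culture by CAG-CreERT2, a Cre recombinase expressed in all cells that 4-hydroxytamoxifen activates, and 2 KO-CAG organoid libraries were set against 2 WT libraries. The sources used here do not state whether the WT cultures of that experiment carried CreERT2 or received the drug, nor how many animals the organoid libraries came from. The mice were 8 to 16 weeks old in most experiments of the study, and the libraries of a group are called biological replicates. If libraries of a group shared a culture, the p-values measure only technical spread.

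Total counts ran from 7348191 to 16881395 per library, and a level of 3 counts, taken as the floor, was worth 0.178 to 0.408 CPM (a gene's share of a library's counts, on the usual common scale), which covers counting error only. Cul4b itself was at 31.7 to 38.3 CPM in the WT crypts and 0.848 to 2.21 CPM in the KO-IEC crypts, and at 70.1 to 83.2 CPM in the WT organoids and 1.69 to 5.19 CPM in the KO organoids of both experiments. The epithelial markers, such as Epcam and Vil1, were detected in every experiment (9 of 9). The crypt libraries differed in mitochondrial ribosomal RNA, which was under 100 CPM in WT replicate 1 and KO-IEC replicates 1, 2 and 3, above 2000 CPM in WT replicates 2 and 3, and between these in WT replicate 4 and KO-IEC replicate 4. The high class held WT libraries only, so that there the genotype and this class cannot be told apart. In bulk RNA, fewer cells of a type and less RNA per cell cannot be told apart.

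NF-kB is a transcription factor that inhibitor proteins hold in the cytoplasm until a signal such as TNF, acting through its receptor and the IKK kinases, has them destroyed. NF-kB then switches on genes of inflammation together with its own brakes, among them Nfkbia, which encodes IkB-alpha, and Tnfaip3, which encodes the ubiquitin-editing enzyme A20. Intestinal epithelial cells also make chemokines that place lymphocytes and phagocytes in the mucosa, and they store the precursor of IL-18, which the inflammasome protease caspase-1 cuts into its active form.

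The promoters of Nfkbia, Tnfaip3, Ccl20 and Cxcl10 are shown since they hold the letters of the kB consensus, the DNA element that NF-kB dimers are known to bind. The windows come from RefSeq on GRCm38.p6 and run from 250 bases before to 50 bases after the annotated start, 5′ to 3′ on the gene's strand, which is minus for Nfkbia, Tnfaip3 and Cxcl10 and plus for Ccl20. Capitals mark matches to the kB consensus, searched on both strands, and, in Cxcl10 only, the interferon-stimulated response element core of GAAA, any 2 bases and GAAA.
Nfkbia, chr12:55492598-55492897: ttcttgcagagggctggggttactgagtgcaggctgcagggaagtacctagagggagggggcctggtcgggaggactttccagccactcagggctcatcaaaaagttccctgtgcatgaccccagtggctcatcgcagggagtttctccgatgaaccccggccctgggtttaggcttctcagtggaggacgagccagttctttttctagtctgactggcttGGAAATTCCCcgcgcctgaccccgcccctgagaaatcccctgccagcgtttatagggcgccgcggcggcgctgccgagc
Tnfaip3, chr10:19015361-19015660: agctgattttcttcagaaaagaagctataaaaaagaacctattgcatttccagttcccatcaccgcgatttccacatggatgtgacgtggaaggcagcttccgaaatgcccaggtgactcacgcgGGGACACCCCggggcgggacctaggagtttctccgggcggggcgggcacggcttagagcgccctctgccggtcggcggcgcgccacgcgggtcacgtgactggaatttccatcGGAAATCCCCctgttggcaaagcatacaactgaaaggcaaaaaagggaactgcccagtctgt
Ccl20, chr1:83116516-83116815: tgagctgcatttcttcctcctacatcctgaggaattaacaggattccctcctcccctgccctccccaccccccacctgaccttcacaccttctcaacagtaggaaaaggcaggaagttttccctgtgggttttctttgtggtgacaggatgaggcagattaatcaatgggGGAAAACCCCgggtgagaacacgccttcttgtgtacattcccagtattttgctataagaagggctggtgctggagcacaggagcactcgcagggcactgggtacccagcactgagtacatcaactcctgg
Cxcl10, chr5:92348840-92349139: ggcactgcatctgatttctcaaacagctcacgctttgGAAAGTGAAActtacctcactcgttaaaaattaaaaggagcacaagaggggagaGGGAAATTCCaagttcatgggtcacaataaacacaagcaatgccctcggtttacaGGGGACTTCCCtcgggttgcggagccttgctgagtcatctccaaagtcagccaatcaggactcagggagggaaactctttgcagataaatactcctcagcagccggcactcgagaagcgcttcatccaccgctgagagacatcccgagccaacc
Nfkbia had 1 match, which begins 29 bases before the start, and Ccl20 had 1 that begins 80 bases before it. Tnfaip3 had matches 125 and 12 bases before the start shown, and its other annotated window, chr10:19011914-19012213, had 0. Cxcl10 had a match 159 bases before the start and a pair of overlapping ones 104 and 103 bases before it, and its interferon element begins 213 bases before the start. Of the 10 genes 9 had at least 1 window (11 windows in all), Cxcl16 being the one without, and 4 of those 9 had a kB match. The kB consensus occurred in 8.46% and the interferon element in 3.44% of the 32851 windows of this length, which are shares of windows and not of genes. A match is a description of the sequence and no evidence of binding, and the windows of Tnf, Ccl25, Ccl28, Cx3cl1 and Il18 lack only these letters.

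The 10 genes spanned a wide range of levels. Values per length (RPKM, which is CPM per kilobase of gene) allow genes to be ranked within a group. In WT crypts Nfkbia (mean 88.4 RPKM), Ccl25 (44.6) and Il18 (34.4) were highest. Ccl28 (19.4) and Cx3cl1 (13.3) were intermediate. Tnfaip3 (3.80), Tnf (2.14), Ccl20 (1.28) and Cxcl16 (0.938) were low, and Cxcl10 (0.0860) was lowest. Ranges over the 4 WT crypt libraries overlapped between neighbours in this order except between Cx3cl1 and Tnfaip3 and between Cxcl16 and Cxcl10. Ccl25, the small-intestinal chemokine that attracts CCR9-bearing lymphocytes, stood first or next to first in all 6 groups, at 38.7 to 62.0 RPKM on average. Cxcl10 came last in all 6 groups. In the WT organoids of the KO-CAG experiment the order was Ccl25 (38.7), Nfkbia (20.9), Ccl28 (15.2), Cx3cl1 (7.92), Il18 (6.36), Cxcl16 (2.86), Tnfaip3 (2.45), Ccl20 (2.31), Tnf (0.853) and Cxcl10 (0.163), and only Cxcl16, Tnfaip3 and Ccl20 overlapped with a neighbour. In the KO-CAG organoids Ccl28 (6.32) stood in the seventh place, below Il18 (21.3), Cx3cl1 (20.1), Cxcl16 (16.8) and Ccl20 (7.13), and it overlapped with Ccl20.

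**Figure D1:**
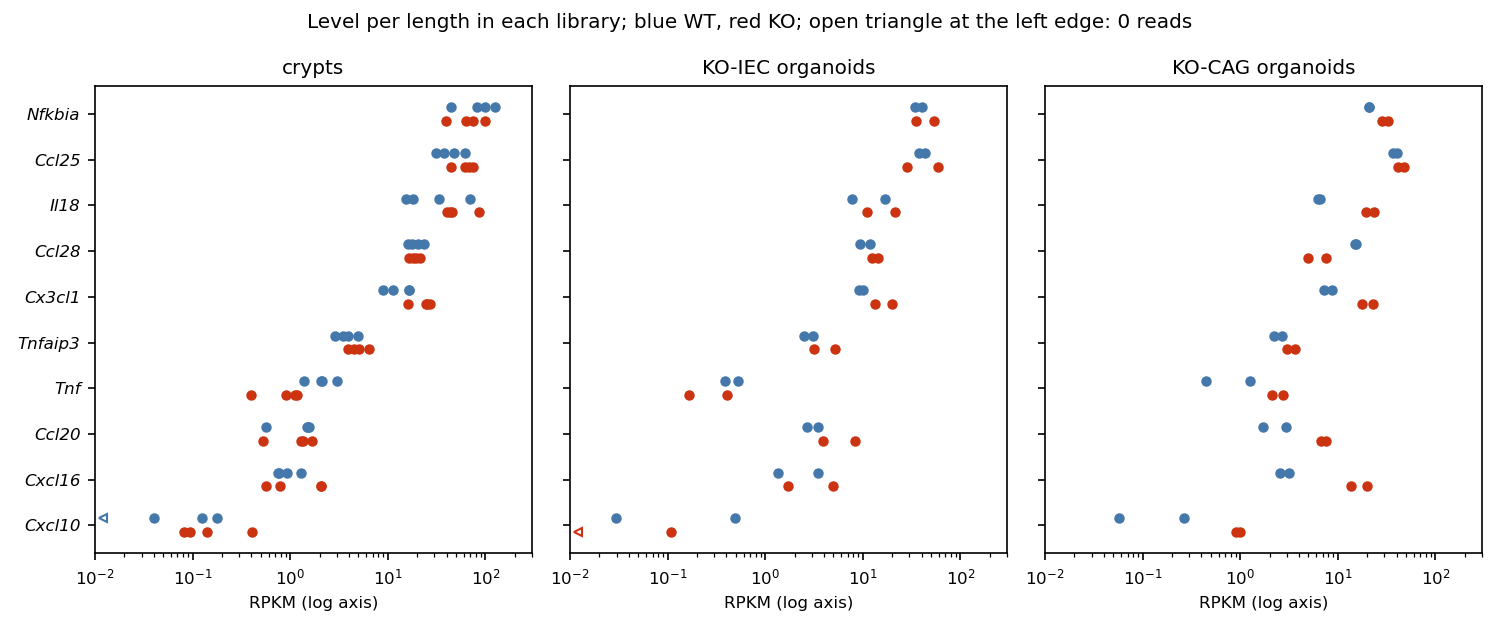
Level per length of each gene in each library (RPKM on a log axis, blue WT and red KO, 1 panel per experiment; an open triangle at the left edge marks a library with 0 reads). Nfkbia and Ccl25 lie at the high end and Cxcl10 at the low end of every panel.

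The KO-CAG experiment gave the largest number of called genes. Its biological coefficient of variation was also the smallest, at 0.0815 against 0.231 in crypts and 0.280 in KO-IEC organoids. Whether its WT cultures carried CreERT2 or received the drug is not stated, so these cannot be told apart from the deletion. Of the 10 genes, 7 rose and 1 fell in KO-CAG organoids at an adjusted p under 0.05 (quasi-likelihood F test of edgeR, Benjamini-Hochberg adjusted over 13598 genes). The same test called 31.5% of all tested genes, 18.1% as higher and 13.4% as lower in KO. Among the 7, Cxcl10 entered the test through its KO-CAG libraries only. The 10 genes had a median log2 fold change of 1.41, against 0.00121 over all tested genes. In all 10, KO and WT libraries did not overlap, as was so for 69.7% of all tested genes. With 2 libraries a side, the smallest p of an exact permutation test is 0.333.

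Tnf (ENSMUSG00000024401, chr17:35199381-35202007, minus strand of GRCm38) encodes the cytokine TNF. It had 6 and 16 reads in the WT libraries and 32 and 36 reads in the KO-CAG libraries, or 0.723 and 2.07 CPM against 4.45 and 3.46 CPM. Both KO-CAG libraries lay above both WT libraries. The log2 fold change was 1.49 (SE 0.44, adjusted p = 0.0275, edgeR). The WT libraries themselves differed widely, and without WT replicate 1 the log2 fold change was 0.90 (adjusted p = 0.219) and without KO-CAG replicate 1 it was 1.30 (adjusted p = 0.0718). DESeq2 gave an adjusted p of 0.0847.

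Of the feedback inhibitors, Nfkbia passed the test in KO-CAG organoids and Tnfaip3 did not. Nfkbia (ENSMUSG00000021025, chr12:55489410-55492647, minus strand) was at 33.4 and 33.8 CPM in WT against 52.1 and 45.7 in KO-CAG. The groups did not overlap and the log2 fold change was 0.54 (SE 0.11, adjusted p = 0.00495, edgeR). Tnfaip3 (ENSMUSG00000019850, chr10:19000910-19015657, minus strand) was at 16.02 and 19.4 CPM in WT against 26.4 and 22.0 in KO-CAG. Its log2 fold change of 0.44 (SE 0.16) did not pass the threshold (adjusted p = 0.0582, edgeR), although its groups did not overlap. It passed without a low-count filter (adjusted p = 0.0356) and without KO-CAG replicate 2 (adjusted p = 0.0111).

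Among the chemokines, Cxcl16 and Cxcl10 had the largest log2 fold changes, which did not differ beyond their errors. CXCL16 is a membrane-bound chemokine whose shed form attracts CXCR6-bearing T cells and innate lymphocytes. Cxcl16 (ENSMUSG00000018920, chr11:70453983-70459984, minus strand) was at 9.64 and 7.65 CPM in WT against 60.1 and 41.4 in KO-CAG. Every KO-CAG library was above every WT library, and the log2 fold change was 2.54 (SE 0.21, adjusted p = 2.73e-05, edgeR), a 5.80-fold rise (95% interval 4.22 to 7.96). Of its 3021 exonic bases, 552 also lie in exons of Zmynd15, which runs on the other strand. Zmynd15 had 15 and 7 reads in WT and 70 and 49 reads in KO-CAG, while Cxcl16 had 80 and 59 reads in WT and 432 and 431 reads in KO-CAG. Whether the counting used strand is not given in the sources used here, so reads of the shared bases cannot be assigned.

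Cxcl10 encodes the interferon-induced ligand of CXCR3 on activated T cells. Cxcl10 (ENSMUSG00000034855, chr5:92346638-92348889, minus strand) had 5 reads and 1 read in WT and 16 and 21 reads in KO-CAG. KO-CAG was the only one of the 3 experiments in which it passed the low-count filter. It passed there through its KO-CAG libraries only, so that it was tested because it was high in them. The groups did not overlap, and the log2 fold change was 2.45 (SE 0.58, adjusted p = 0.00978, edgeR). Scaled to depth, the pooled counts of 37 and 6 reads gave a ratio of 5.62 with an exact 95% interval of 2.35 to 16.3 for counting error only. Of its 2252 exonic bases 133 lie in exons of Art3 on the other strand. Without WT replicate 2 the log2 fold change was 1.78 (adjusted p = 0.102), and DESeq2 gave an adjusted p of 0.0539.

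Cx3cl1 and Ccl20 rose as well. CX3CL1 (fractalkine) is a membrane-bound chemokine for CX3CR1-bearing phagocytes. Cx3cl1 (ENSMUSG00000031778, chr8:94772009-94782427, plus strand) was at 34.0 and 28.2 CPM in WT against 89.7 and 68.7 in KO-CAG, without overlap. Its log2 fold change was 1.34 (SE 0.14, adjusted p = 1.30e-04, edgeR). CCL20 attracts CCR6-bearing B cells and dendritic cells to lymphoid follicles of the gut and is a known NF-kB target. Ccl20 (ENSMUSG00000026166, chr1:83116766-83119167, plus strand) had 20 and 32 reads in WT and 69 and 111 reads in KO-CAG, or 2.41 and 4.15 CPM against 9.59 and 10.7 CPM. Both KO-CAG values were above both WT values, with a log2 fold change of 1.64 (SE 0.28, adjusted p = 0.00178, edgeR).

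Of the homeostatic epithelial chemokines, Ccl28 fell in KO-CAG organoids and Ccl25 did not pass the test. Ccl28 (ENSMUSG00000074715, chr13:119623819-119654359, plus strand) encodes a mucosal chemokine that draws CCR10-bearing plasma cells. It was at 73.0 and 74.6 CPM in WT against 24.2 and 37.0 in KO-CAG, the only one of the 10 genes with lower KO-CAG values. It fell by 1.25 on the log2 scale (SE 0.16, adjusted p = 3.29e-04, edgeR), and the drop was 1.01 to 1.61 when any 1 library was left out. Ccl25 (ENSMUSG00000023235, chr8:4325210-4360020, plus strand) was at 303 and 272 CPM in WT against 354 and 311 in KO-CAG. Its groups lay side by side without overlap, and the log2 fold change of 0.21 (SE 0.10, 95% interval -0.01 to 0.43) did not pass (adjusted p = 0.133, edgeR). It passed without KO-CAG replicate 2, at 0.29 (adjusted p = 0.0173). Of its 7445 exonic bases 204 lie in exons of Elavl1 on the other strand.

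Il18 (ENSMUSG00000039217, chr9:50554827-50581840, plus strand) encodes the IL-18 precursor. It was at 6.39 and 6.74 CPM in WT against 19.9 and 23.9 in KO-CAG. The WT libraries were close together and both KO-CAG libraries lay well above them. The log2 fold change was 1.75 (SE 0.18, adjusted p = 1.14e-04, edgeR). When all 16 libraries shared 1 estimate of the spread, only Cxcl16, Cx3cl1 and Ccl28 of the 8 genes were called (3.06% of all genes), and the log2 fold changes of the other five were 0.53 to 2.47.

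**Figure D2:**
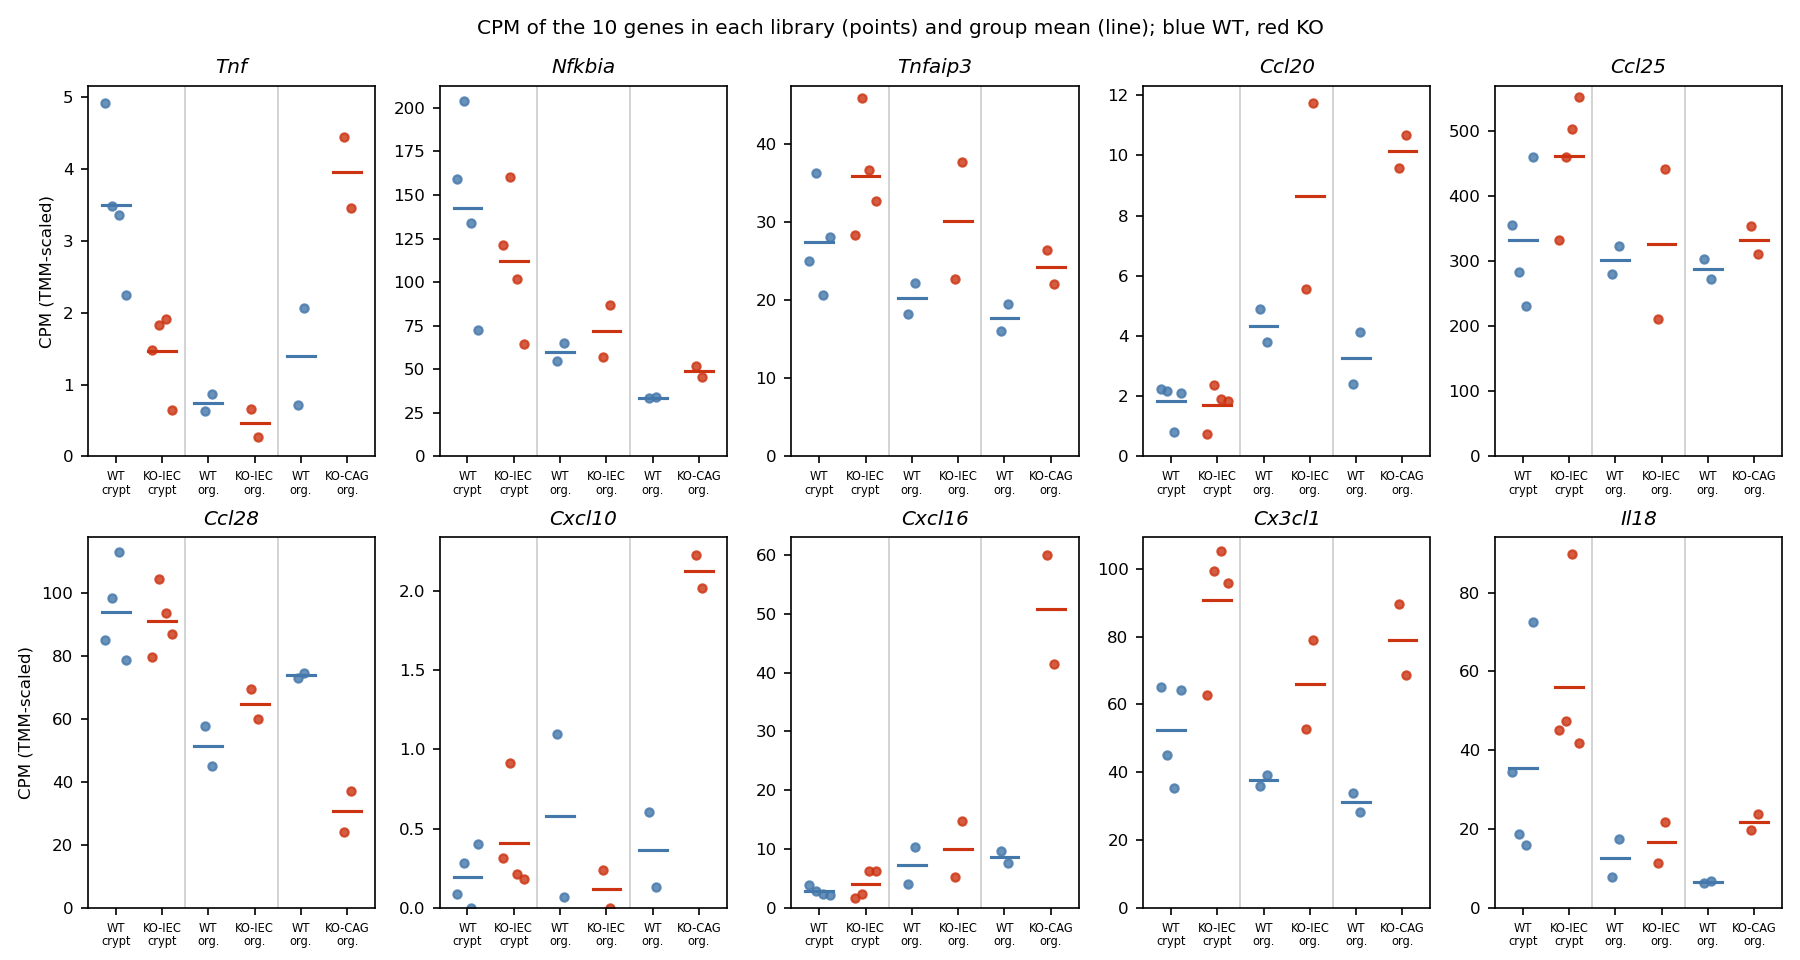
CPM of the 10 genes in each library (points) with the group mean (line), blue for WT and red for KO, 1 panel per gene with axes from 0; vertical lines part the crypts, the KO-IEC organoid experiment and the KO-CAG organoid experiment. In the KO-CAG experiment the red points lie above the blue ones in 9 panels and below them for Ccl28.

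Markers of cell classes moved in the same libraries. Epithelial markers were called higher for 5 of 9 genes and lower for 1 in KO-CAG organoids, where 31.5% of all tested genes were called. In crypts 1 of the 9 was called, Vil1, which was higher in KO-IEC (log2 fold change 1.00, adjusted p = 0.0499, edgeR). Enterocyte markers such as Apoa1 and Krt20 were called higher in KO-CAG organoids for 9 of 10 genes, with a summed level of 4624 to 5048 CPM in WT against 10520 to 13140 in KO-CAG and a median log2 fold change of 1.51. Paneth cell markers were called higher for 7 of 8, at 5009 to 5442 CPM in WT against 8438 to 9025 in KO-CAG (median log2 fold change 1.20). In the other experiments none of the 8 Paneth cell markers was called, with 7 of 8 log2 fold changes negative in crypts (median -0.69, sums of 11050 to 20660 CPM in WT against 2097 to 19100 in KO-IEC) and 8 of 8 in KO-IEC organoids (median -0.70, 2499 to 4161 against 1833 to 2403 CPM). Their part in the differences of the 10 genes was not tested. Lymphocyte markers summed to 0.648 to 2.05 CPM in WT and 2.50 to 3.17 CPM in KO-CAG organoids, with Cd3d, Cd8a, Trdc, Gzma and Gzmb among those at 0 reads in all 4 libraries. Of 11 myeloid markers, summed at 14.8 to 16.6 CPM in WT against 20.0 to 20.2 in KO-CAG, Adgre1, C1qb, Fcgr1, S100a8 and S100a9 had 0 reads in all 4 libraries. Only 3 myeloid markers passed the filter and 1 was called, the macrophage receptor Csf1r, at 0.5001 ± 0.026 CPM in WT against 3.61 ± 1.57 in KO-CAG (SD, n = 2 each). Csf1r had 4 reads in each WT library and passed the filter through its KO-CAG libraries only. Of other macrophage markers, Cd68 was at 3.98 and 2.98 CPM in WT against 2.64 and 2.60 in KO-CAG, and C1qa had 5 and 3 reads in WT and 5 in each KO-CAG library.

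In crypts freshly isolated from the mice, none of the 10 genes passed the threshold. Of the 9 that were tested (Cxcl10 was removed by the low-count filter), edgeR called 0, and 2 had an unadjusted p under 0.05 (Tnf and Cx3cl1). Among all 13427 tested genes 6.96% were called and 31.9% had an unadjusted p under 0.05. DESeq2 called 2 of the 9 genes and 18.5% of all genes. The ranges of KO-IEC and WT were apart for 1 gene, Tnf, as for 17.5% of all tested genes, and the median log2 fold change of the 9 was 0.39 (all tested genes, -0.01).

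Tnf had few reads in every crypt library. It had 55, 37, 42 and 28 reads in WT replicates 1 to 4 and 14, 24, 18 and 7 reads in KO-IEC replicates 1 to 4, or 4.93, 3.49, 3.36 and 2.25 CPM against 1.48, 1.83, 1.91 and 0.643 CPM. Every KO-IEC library lay below every WT library (p = 0.0286 by exact permutation, two-sided, which is as small as 4 against 4 libraries can give). The log2 fold change was -1.25 (SE 0.36, 95% interval -2.06 to -0.44), with an adjusted p of 0.0610 by edgeR. Other settings fell on the other side of the threshold, with an adjusted p of 0.0190 by DESeq2, 0.0457 without the low-count filter and 0.0396 without WT replicate 4. Among libraries with low mitochondrial ribosomal RNA (WT replicate 1, KO-IEC replicates 1, 2 and 3) the log2 difference was -1.42. It was -1.56 between the middle ones (replicate 4 of each genotype). Each of these classes held 1 WT library, so its spread is not known and neither value is a test. Without the high class the log2 fold change was -1.28 (adjusted p = 0.391, edgeR). Myeloid markers, which include genes of TNF-producing cells, summed to 27.1 to 34.7 CPM in WT and 14.8 to 23.1 CPM in KO-IEC crypts over 11 genes, and S100a8 and S100a9 had 0 reads in KO-IEC. None of the 4 tested myeloid markers was called, and their log2 fold changes were negative for 3 and positive for 1. Csf1r, Cd68 and Lyz2 overlapped between genotypes, while C1qa was at 0.848 to 1.36 CPM in WT against 0 to 0.530 in KO-IEC. Of the Paneth cell markers 7 of 8 had negative log2 fold changes in these libraries, as given above. The part of either list in the Tnf difference was not tested.

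Cx3cl1 was the other crypt gene near the threshold. It was at 65.1, 45.0, 35.3 and 64.2 CPM in WT replicates 1 to 4 and 62.9, 99.5, 105 and 95.9 CPM in KO-IEC replicates 1 to 4. KO-IEC replicate 1 lay within the WT range and the other three lay above it. The log2 fold change was 0.80 (SE 0.22, adjusted p = 0.0578, edgeR), and the exact permutation test gave p = 0.0857. The adjusted p was 0.00926 by DESeq2, 0.0208 without the low-count filter, 0.0353 with all 16 libraries in 1 fit, 0.0250 without KO-IEC replicate 1 and 0.0410 without WT replicate 4. Enterocyte markers had a summed level of 2207 to 9551 CPM in WT against 8310 to 18200 in KO-IEC and a median log2 fold change of 1.57, with 0 of 10 called. With an enterocyte marker score as a covariate the log2 fold change of Cx3cl1 was 0.08 (adjusted p = 0.908, edgeR). That fit called 1 of 13427 genes. The score ran from -1.62 to 0.259 in WT and from 0.0497 to 1.08 in KO-IEC crypts, so score and genotype largely went together. Without the high class of mitochondrial ribosomal RNA the log2 fold change was 0.49 (adjusted p = 0.404, edgeR). The part of enterocyte content in the Cx3cl1 difference was not tested.

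**Figure D3:**
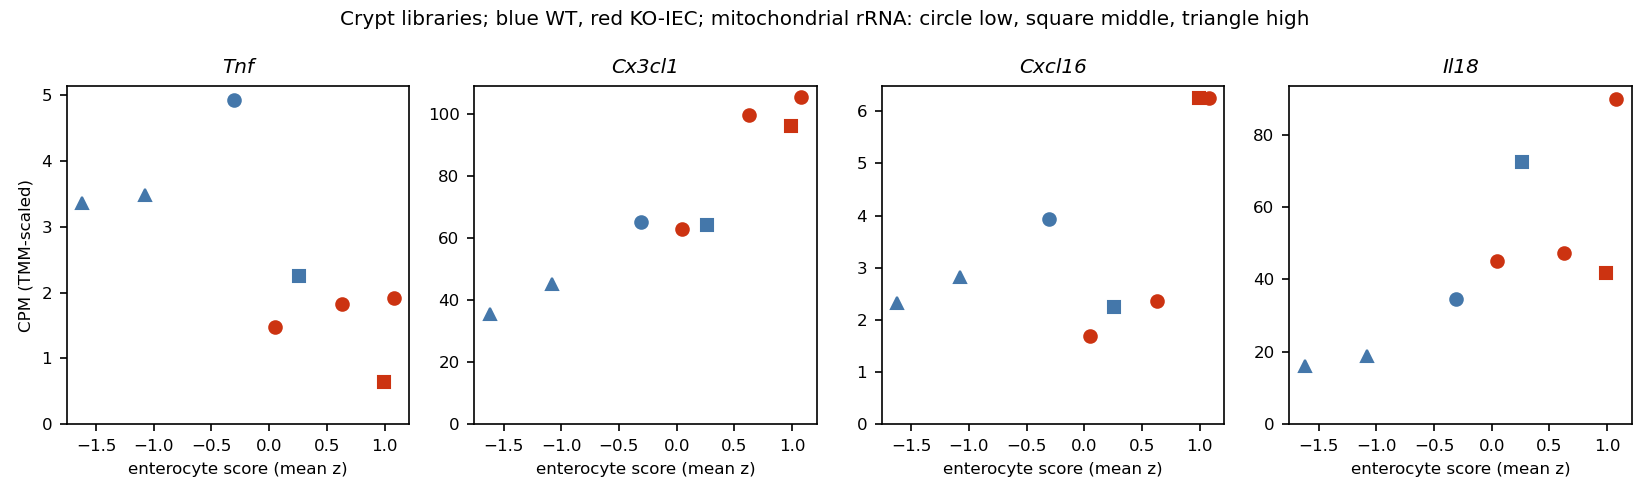
CPM of Tnf, Cx3cl1, Cxcl16 and Il18 in the 8 crypt libraries against the enterocyte marker score (mean z score of 10 markers), blue WT and red KO-IEC, with symbols for the class of mitochondrial ribosomal RNA. WT replicates 2 and 3 (triangles) have the lowest scores, -1.08 and -1.62, and KO-IEC replicate 3 has the highest, 1.08.

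For Il18 and Cxcl16 the crypt genotypes differed by less than the spread between libraries. Il18 was at 34.5, 18.9, 15.99 and 72.5 CPM in WT replicates 1 to 4 and 45.0, 47.3, 89.8 and 41.7 CPM in KO-IEC replicates 1 to 4. The ranges overlapped, with a log2 fold change of 0.66 (SE 0.46, adjusted p = 0.348, edgeR), which became 1.30 (adjusted p = 0.0445) without WT replicate 4 and -0.54 (adjusted p = 0.662) with the enterocyte score as a covariate. Cxcl16 had 44, 30, 29 and 28 reads in WT and 16, 31, 59 and 68 reads in KO-IEC. KO-IEC replicate 1 was below every WT library and replicates 3 and 4 were above them, and the log2 fold change was 0.54 (SE 0.43, adjusted p = 0.403, edgeR). It was 0.07 with a lymphocyte marker score as a covariate and -0.30 with the enterocyte score. The part of either score in the Il18 and Cxcl16 differences was not tested. Lymphocyte markers summed to 39.8 to 153 CPM in WT and 70.6 to 424 CPM in KO-IEC crypts, with all 14 detected in both groups and none called.

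None of the other crypt genes passed the test. Nfkbia was at 72.3 to 204 CPM in WT against 64.3 to 160 in KO-IEC (log2 fold change -0.35, 95% interval -1.09 to 0.40). Tnfaip3 was at 20.7 to 36.2 CPM in WT against 28.3 to 45.9 in KO-IEC (log2 fold change 0.39, 95% interval -0.05 to 0.82). Ccl25 was at 231 to 460 CPM in WT against 332 to 552 in KO-IEC (log2 fold change 0.47, 95% interval -0.04 to 0.98). All 3 intervals include 0 and the ranges overlapped. Ccl28 had the tightest estimate, at 93.8 ± 15.2 CPM in WT against 91.2 ± 10.5 in KO-IEC (SD, n = 4 each), and its log2 fold change was -0.04 with a 95% interval of -0.34 to 0.26. Ccl20 had 25, 23, 10 and 26 reads in WT and 7, 31, 18 and 20 reads in KO-IEC, with 1 low library in each group, and its interval of -0.99 to 0.85 is wide on both sides of 0. Cxcl10 had 1, 3, 0 and 5 reads in WT and 3, 12, 2 and 2 reads in KO-IEC, mostly at or under the floor of 3 reads, so that no difference was detectable at this depth.

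In organoids grown from KO-IEC crypts, edgeR called none of the 9 genes tested (again all but Cxcl10), DESeq2 called 0 (0.194% of all genes), and 1 had an unadjusted p under 0.05. Of all 13938 tested genes 0.00717% were called, which is Cul4b alone, and 4.66% had an unadjusted p under 0.05. Of the 10 genes 4 had KO-IEC libraries above both WT libraries (Tnfaip3, Ccl20, Ccl28 and Cx3cl1), as against 38.9% of all tested genes whose groups did not overlap in either direction. Of the 9 log2 fold changes 8 were positive, with a median of 0.38 (all tested genes, -0.01).

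Cx3cl1 had the smallest unadjusted p. It was at 36.0 and 39.3 CPM in WT against 52.8 and 79.1 in KO-IEC, with both KO-IEC libraries above WT. The log2 fold change was 0.81 (SE 0.24, 95% interval 0.18 to 1.44), and it did not pass the adjustment (adjusted p = 0.856, edgeR). Ccl20 had 85 and 57 reads in WT and 92 and 174 reads in KO-IEC, so that the log2 fold change was 0.99 (SE 0.46, adjusted p = 0.856, edgeR). Tnfaip3 was at 18.2 and 22.2 CPM in WT against 22.6 and 37.7 in KO-IEC, so that the log2 fold change was 0.58 (SE 0.31, adjusted p = 0.856, edgeR). In Tnfaip3 and Ccl20, KO-IEC replicate 1 lay just above the WT libraries and replicate 2 well above them. Without KO-IEC replicate 1, which leaves a single KO-IEC library that is assumed to vary as the WT pair does, the adjusted p was 0.00681 for Cx3cl1, 0.0253 for Ccl20 and 0.0281 for Tnfaip3, in a fit that called 15.8% of all genes.

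Ccl28 was at 57.8 and 45.1 CPM in WT organoids and 69.6 and 60.0 CPM in KO-IEC organoids. The KO-IEC values were the higher ones, with a log2 fold change of 0.33 (95% interval -0.18 to 0.85). The remaining genes overlapped between genotypes. Tnf had 11 and 13 reads in WT and 11 and 4 reads in KO-IEC, and Cxcl10 had 19 reads and 1 read in WT and 4 and 0 reads in KO-IEC, so that 1 WT library carried nearly all Cxcl10 reads. Il18 was at 7.95 and 17.6 CPM in WT against 11.4 and 21.8 in KO-IEC, and Cxcl16 was at 4.09 and 10.4 CPM in WT against 5.18 and 14.9 in KO-IEC. In both genes replicate 2 was higher than replicate 1 in each genotype. Nfkbia was at 54.9 and 65.0 CPM in WT against 56.9 and 87.0 in KO-IEC. Ccl25 was at 281 and 323 CPM in WT against 211 and 442 in KO-IEC, so that the KO-IEC libraries lay on both sides of WT.

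**Figure D4:**
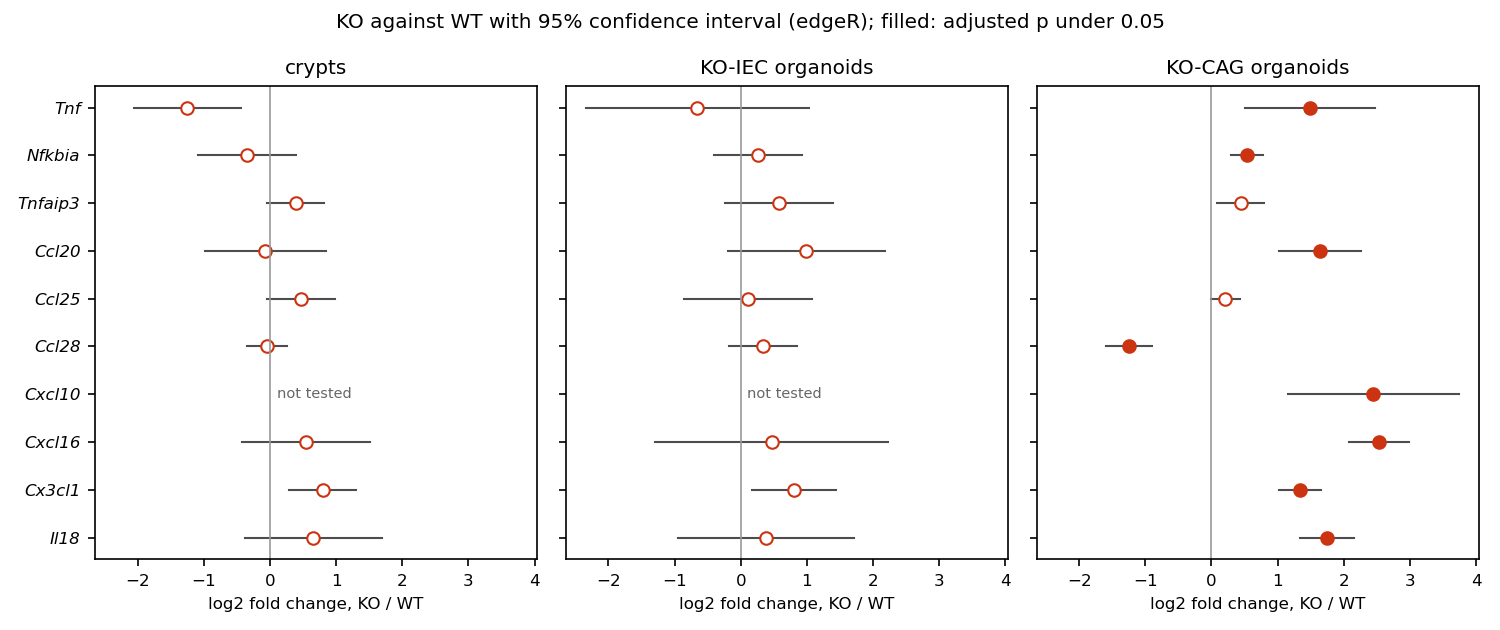
Log2 fold change of KO against WT (points) with its 95% confidence interval (lines) for each gene in the 3 experiments; filled points passed an adjusted p of 0.05 and Cxcl10 was not tested in 2 experiments. Filled points appear only in the KO-CAG panel, with Ccl28 at -1.25 and the other filled points between 0.54 and 2.54.

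Whether the KO effect differed between experiments was tested in 1 fit of all 16 libraries over 15585 genes. Ccl28 was the only one of the 10 genes called, and its effect was 1.62 log2 units lower in KO-CAG than in KO-IEC organoids (a difference of -1.62, SE 0.30, adjusted p = 0.0352, edgeR), where 0.385% of all genes were called. This call was lost (adjusted p = 0.0651) when libraries were scaled by size only, and in 8 of the 16 fits that left out 1 library (WT crypt replicate 2, either WT library or KO-IEC replicate 2 of the KO-IEC organoids, or any of the 4 libraries of the KO-CAG experiment), over which the difference ran from -1.96 to -1.35 and the adjusted p from 0.0226 to 0.231. Against the crypts, the KO-CAG effect on Ccl28 differed by -1.24 (adjusted p = 0.0640, edgeR) and that on Tnf by 2.73 (SE 0.69, adjusted p = 0.0963, edgeR), and 0 of the 10 genes and 0.372% of all genes were called. At an unadjusted p under 0.05 there were 4 genes, Tnf, Ccl20, Ccl28 and Cxcl16, against 14.4% of all genes. Between KO-IEC organoids and crypts 0 of the 10 genes and 0.00642% of all genes were called, with none of the 10 at an unadjusted p under 0.05 (6.96% of all genes). For Cxcl16 the difference between KO-CAG and KO-IEC organoids was 2.05 (SE 0.85, adjusted p = 0.401, edgeR), so the call in one and not in the other is not shown to be a difference between them.

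The wider NF-kB pathway was described through lists of genes that exclude the 10. These lists were chosen with earlier results of these data known, so counts above the share of all genes are descriptions and not independent evidence. In KO-CAG organoids, 6 of 10 tested NF-kB subunits and IkB proteins were called higher and 0 lower. Of all tested genes 18.1% were called higher and 13.4% lower. The median log2 fold change of the list was 0.48 against 0.00121 over all tested genes. Nfkbib, which encodes IkB-beta, rose from 19.8 ± 0.841 to 33.5 ± 2.43 CPM (SD, n = 2 each), and its log2 fold change was 0.76 (adjusted p = 0.00176, edgeR). Nfkb2, the p100 precursor of the non-canonical pathway, rose by 0.76 (adjusted p = 0.00347), Nfkbiz, a nuclear IkB protein, by 0.60 (adjusted p = 0.00194), and Rela, the main transactivating subunit, by 0.42 (adjusted p = 0.00581). These changes were all under 2-fold. With all 16 libraries in 1 fit 1 of the 10 was called, and without WT replicate 2 it was 3 (3.06% and 20.3% of all genes).

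Upstream of NF-kB, 5 of 21 tested genes of TNF receptor signalling and IKK activation were called higher and 2 lower in KO-CAG organoids (median log2 fold change 0.08), a share near the 31.5% of all tested genes. Chuk, the kinase IKK-alpha, rose by 0.63 (adjusted p = 5.21e-04), Tnfrsf1a, the widely expressed TNF receptor, by 0.70 (adjusted p = 0.00130), and Rbck1 and Sharpin, partners in the linear ubiquitin chain complex, by 0.46 and 0.50 (adjusted p = 0.00183 and 0.00572, edgeR). Among the negative regulators other than Nfkbia and Tnfaip3, 4 of 13 were called higher and 0 lower (median 0.23). Of all tested genes 18.1% were called higher, 13.4% lower and 31.5% in either direction. With all 16 libraries in 1 fit 1 of 14 negative regulators and 1 of 22 TNF signalling genes were called (3.06% of all genes). Pdlim2, which promotes the degradation of nuclear RelA, rose from 4.61 ± 0.292 to 16.8 ± 1.83 CPM (SD, n = 2 each), and its log2 fold change was 1.85 (adjusted p = 1.54e-04, edgeR). Zc3h12a, an RNase for inflammatory mRNAs, rose by 0.80, Otud7b, a deubiquitinase, by 0.46, and Tnip1, a partner of A20, by 0.41 (adjusted p = 0.00355, 0.00377 and 0.0114, edgeR).

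Of 21 other NF-kB target genes, 8 passed the filter in KO-CAG organoids and 4 of them were called higher, 0 lower (median 0.59). Of all tested genes 18.1% were called higher. With all 16 libraries in 1 fit 1 of 11 was called (3.06% of all genes). With at least 10 counts required in every library 3 of 7 were called, with a median of 0.32 (31.8% of all genes). Icam1, the adhesion molecule bound by leukocyte integrins, had 1 read in each WT library and 48 and 75 reads in the KO-CAG libraries. Icam1 thus passed the filter through its KO-CAG libraries only, and was tested because it was high in them. Its depth-scaled count ratio was 56 with an exact 95% interval of 15.2 to 468 for counting error only (adjusted p = 3.91e-05, edgeR). Bcl2l1, a survival gene, rose by 0.88, Junb, a subunit of AP-1, by 0.85 and Ier3, an immediate early gene, by 0.92 on the log2 scale (adjusted p = 4.00e-04, 7.90e-04 and 0.00786, edgeR). Of 25 other chemokine genes only 2 passed the filter and 0 were called. In the crypts 1 of 4 tested was called, the CXCR3 ligand Cxcl11, at 1.08 ± 0.372 CPM in WT against 4.05 ± 1.52 in KO-IEC (SD, n = 4 each), and its log2 fold change was 1.89 (adjusted p = 0.0397, edgeR).

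Of the 11 genes for receptors of these ligands, 3 passed the filter in each experiment. In KO-CAG organoids Tnfrsf1a (above) and Il18r1, a chain of the IL-18 receptor, were called higher, Il18r1 at 1.25 ± 0.241 CPM in WT against 3.07 ± 0.0132 in KO-CAG (SD, n = 2 each; log2 fold change 1.29, adjusted p = 0.0239, edgeR). Il18r1 had only 9 and 11 reads in WT and 22 and 32 in KO-CAG. Of all tested genes 18.1% were called higher. With all 16 libraries in 1 fit 0 of 5 receptors were called, and by DESeq2 1 of 3 (3.06% and 20.3% of all genes). Tnfrsf1b, the second TNF receptor, was at 18.5 CPM in WT against 20.9 in KO-CAG and was not called (adjusted p = 0.434, edgeR). The chemokine receptors Ccr3, Ccr6 and Cxcr3 had 0 reads in all 4 libraries of that experiment, and Cxcr6, Cx3cr1, Ccr9 and Ccr10 had at most 5 reads in any. In crypts Ccr9, the CCL25 receptor, passed the filter at 0.966 ± 0.498 CPM in WT against 2.66 ± 2.07 in KO-IEC (SD, n = 4 each; adjusted p = 0.147, edgeR). In the crypts 0 of the 3 receptors and in KO-IEC organoids 0 of 3 were called.

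Genes that shed or mature the ligands moved in both directions in KO-CAG organoids, with 7 of 17 called higher and 3 lower (median -0.05). Of all tested genes 18.1% were called higher and 13.4% lower. With all 16 libraries in 1 fit 1 of the 17 was called (3.06% of all genes). Gsdmd, the pore protein through which mature IL-18 leaves the cell, rose from 53.8 ± 0.406 to 146 ± 15.3 CPM (SD, n = 2 each; log2 fold change 1.43, adjusted p = 9.25e-06, edgeR). Casp1, the protease that matures IL-18, fell by 0.50 (adjusted p = 0.00285) and Pycard, the adaptor that recruits it, fell by 0.87 (adjusted p = 9.98e-05), while Il18 itself rose. Rhbdf2, which carries the TNF-shedding protease ADAM17, rose by 0.68 (adjusted p = 0.00124, edgeR). DESeq2 called 5 of the 17. Without WT replicate 1 edgeR called 5 and without WT replicate 2 it called 6. In these 3 fits 20.3%, 19.8% and 20.3% of all genes were called.

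Interferon-response genes, the class to which Cxcl10 belongs, were called higher for 9 of 16 and lower for 1 in KO-CAG organoids (median 0.52). Of all tested genes 18.1% were called higher and 13.4% lower. By adjusted p the list was led by Psmb8 (1.92), Irf7 (1.85), Ifit1 (2.16) and Isg15 (2.49; adjusted p = 3.62e-04 to 0.00149, edgeR). Isg15 had 6 and 7 reads in WT and 41 and 39 in KO-CAG, and passed the filter through KO-CAG libraries only. With at least 10 counts required in every library 8 of 12 were called, with a median of 0.51 (31.8% of all genes). With all 16 libraries in 1 fit 3 of 22 were called (3.06% of all genes). In the crypts 7 of 21 were called higher and 0 lower (median 0.69), where 6.96% of all tested genes were called in either direction. By adjusted p these were led by Usp18 (2.24), Ifit3 (2.12), Irf7 (1.39) and Ifit1 (1.73; adjusted p = 0.0226 to 0.0298, edgeR). The crypt count was 0 without WT replicate 2, without KO-IEC replicate 2 or without KO-IEC replicate 3, 1 without WT replicate 3, and 0 with the class of mitochondrial ribosomal RNA or the enterocyte score as a covariate. In these 6 fits the calls over all genes fell as well, from 934 to 3, 2, 2, 11, 2 and 1, while the median of the list stayed between 0.52 and 0.77. In KO-IEC organoids 0 of 16 were called, and 13 of the 16 log2 fold changes were negative.

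In the crypts the NF-kB lists showed little. Of 10 NF-kB subunits and IkB proteins, 21 TNF signalling genes, 10 other NF-kB targets and 17 ligand-processing genes, 0 were called in each list. Of 13 negative regulators 2 were called higher, Itch, a ubiquitin ligase that works with A20 (0.48, adjusted p = 0.0438), and its partner Rnf11 (0.34, adjusted p = 0.0482, edgeR). Neither was called when libraries were scaled by size only (0.39 and 0.26, with 4.73% of all genes called) or with the high class of mitochondrial ribosomal RNA left out (0.43 and 0.33), where 1 of 13984 genes was called in all. In KO-IEC organoids 0 genes were called in any of the 8 lists, and without KO-IEC replicate 1, where 15.8% of all genes were called, there were 1 to 3 calls in 7 of them.

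**Figure D5:**
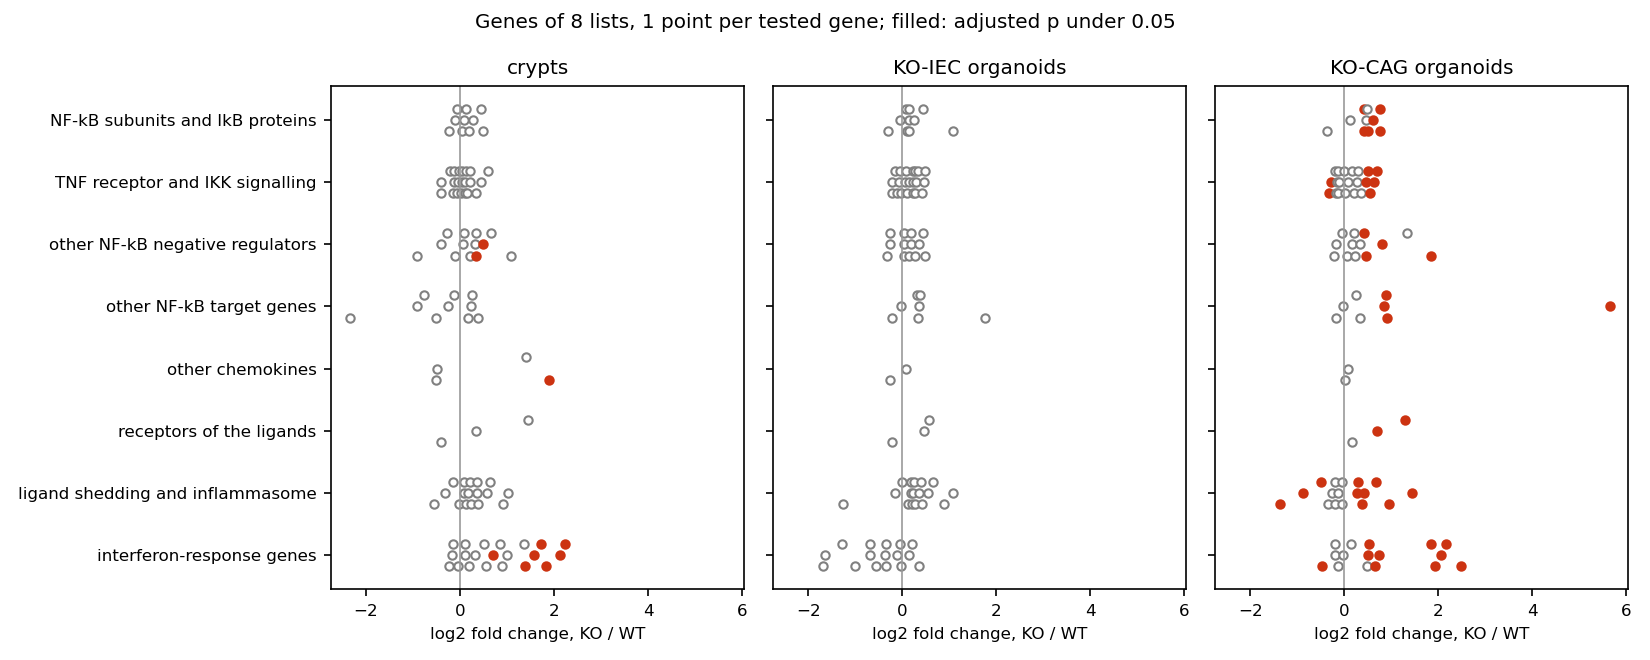
Log2 fold change of KO against WT for the tested genes of 8 lists (1 point per gene, 1 panel per experiment), filled where the adjusted p was under 0.05. Most filled points lie in the KO-CAG panel, where Icam1 stands at 5.64, and the crypt panel holds 7 filled interferon-response genes.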

How the data were processed

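RNA-seq of 16 mouse libraries in 3 experiments was used. Per gene, the authors deposited unnormalized read counts, 1 table per experiment. The submitters' processing notes name HISAT2 2.0.5 and featureCounts 1.5.0-p3. Genome build and strand setting are not given in the sources used here, and positions are those of the tables, which match GENCODE release M21 on GRCm38 for all 10 genes.

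Each table was fitted whole, KO against WT without a block, with edgeR 4.0.16 in R 4.3.3 (filterByExpr, TMM scaling, quasi-likelihood F test, Benjamini-Hochberg adjustment over all tested genes, threshold 0.05). DESeq2 1.42.0 was an alternative. Standard errors were computed from the log2 fold change and F. CPM are TMM-scaled, except for mitochondrial RNA and the floor, which are relative to total counts. RPKM divide these by the deposited gene length. Log2 CPM for within-class differences and permutation tests carry a prior count of 2. Total counts per library limit the precision of low genes.

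The 10 genes and the lists were chosen with earlier results of these data known. Named from each list are the 4 genes with the smallest adjusted p under 0.05, and the receptors by counts. Marker genes named as examples or at 0 reads fall outside that rule. Symbols with more than 1 row (2) were left out of lists. Replicate numbers are shared between WT and KO, but nothing pairs the libraries, and same-numbered libraries correlated at -0.395 to 0.434 (crypts), 0.342 (KO-IEC organoids) and 0.0669 (KO-CAG organoids). No 2 libraries of a group agreed within sampling noise. Figures used matplotlib 3.10.9.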

Additional observations from a re-analysis of the deposited data

Results flagged for a closer look

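Within groups of 4 crypt libraries, the gap of the farthest library to its nearest neighbour was set against the range of the group by Dixon's test. It marked 2 of 20 groups, where chance marks about 1 in 20. Ccl20 in WT crypt replicate 3 was at 0.7996 CPM (10 reads), below the other WT libraries at 2.09 to 2.24 CPM. Il18 in KO-IEC crypt replicate 3 was at 89.8 CPM, above the other KO-IEC libraries at 41.7 to 47.3 CPM. That library also had the highest enterocyte score (1.08) and the highest lymphocyte score of the crypts, and their part in the Il18 value was not tested.

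The effect of the deletion on Ccl28 was called as different between the organoid experiments, but this call depended on the setting. The log2 difference was -1.62 for KO-CAG minus KO-IEC organoids (SE 0.30, adjusted p = 0.0352, edgeR, by the interaction term). The call was lost when libraries were scaled by size only (adjusted p = 0.0651, edgeR) and without WT crypt replicate 2 (adjusted p = 0.0607, edgeR). It was also lost in other fits that left out a library, as given above. Both KO-CAG libraries lay below their WT libraries and both KO-IEC libraries above theirs.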

How the results depend on the processing

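Called were 0 of the 10 genes in crypts, 0 in organoids of KO-IEC mice and 8 in KO-CAG organoids. In crypts the number was 2 without the low-count filter, 2 by DESeq2 and 1 with all 16 libraries in 1 fit, and 0 to 3 when 1 library was left out (3 without WT replicate 4, 1 without KO-IEC replicate 1). Over all genes these fits called 1479, 2490, 1659, 2 to 2468, 1864 and 2468, against 934. In KO-IEC organoids it was 0 to 3 when 1 library was left out (0 to 2322 over all genes). In KO-CAG organoids it was 3 with all 16 libraries in 1 fit, which uses 1 estimate of the spread for experiments whose biological coefficients of variation were 0.231, 0.280 and 0.0815, and 7 to 10 when 1 library was left out (477 and 2789 to 5177 over all genes, against 4278). The number of genes whose effect differed between KO-CAG and KO-IEC organoids, 1, was 0 with scaling by library size only, 4 without the low-count filter (599 over all genes) and 0 to 1 when 1 library was left out. Between KO-CAG organoids and crypts it was 5 without the low-count filter (674 over all genes) and 0 to 1 when 1 library was left out. In KO-CAG organoids DESeq2 did not call Tnf or Cxcl10, and it called 2761 of all 13598 tested genes. The cause of these shifts was not tested.

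The direction turned in values that were not called. In crypts, Ccl20 turned to 0.05, 0.02, 0.03 and 0.17 without WT replicates 1, 2 and 4 and KO-IEC replicate 1 (leave-one-out range -0.32 to 0.17). Ccl28 turned to 0.0608 and 0.02 without WT replicate 3 and KO-IEC replicate 1 (range -0.11 to 0.0608), to 0.13 with mitochondrial ribosomal RNA class as covariate, 0.0563 with the lymphocyte score, 0.15 without the high class and 0.12 within the low class. With the enterocyte score Nfkbia turned to 0.36, Ccl25 to -0.26, Ccl28 to 0.22, Cxcl16 to -0.30 and Il18 to -0.54, and within the low class Cxcl16 turned to -0.21. In KO-IEC organoids, Cxcl16 and Il18 turned to -0.06 and -0.08 without WT replicate 1, and Nfkbia, Ccl25, Cxcl16 and Il18 to -0.0737, -0.52, -0.48 and -0.16 without KO-IEC replicate 2, the lowest values when 1 library was left out, of which the highest were 0.54, 0.55, 1.27 and 1.05.

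With the replicate number as a block, 0 of the 10 genes were called in crypts or KO-IEC organoids, and 9 of the 10 in KO-CAG organoids, where Tnfaip3 passed (adjusted p = 0.0355, edgeR). Over all genes the block called 4, 1 and 4932, against 934, 1 and 4278 without it, and the 7 interferon-response genes, 2 negative regulators and 1 chemokine called in crypts became 0. The interaction was not fitted with a block or with DESeq2. With 2 organoid libraries per group, and 1 to 21 reads for Cxcl10 in the KO-CAG experiment, estimates of the low genes are wide.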
